A study of Mus musculus with 6 samples.

Results

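The miR-130 and miR-301 family is a group of microRNAs (miRNAs) made from 4 precursors in these data: miR-130a, miR-130b, miR-301a and miR-301b. Its members were chosen by name, as every listed mature miRNA of any arm from these precursors, and no expression value entered that rule. The family itself was taken up with earlier results of these libraries known, so its differences are given as a description over all miRNAs and are not independent evidence. The rule found 8 of the 685 listed entries, a 5p and a 3p arm of each precursor: mmu-miR-130a-5p, mmu-miR-130a-3p, mmu-miR-130b-5p, mmu-miR-130b-3p, mmu-miR-301a-5p, mmu-miR-301a-3p, mmu-miR-301b-5p and mmu-miR-301b-3p. All 8 passed the filter on low values.

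The libraries held small RNA from N2a, a line of mouse neuroblastoma cells that take on neuron-like features under retinoic acid. Cells of both groups were given 10 µM retinoic acid over 96 h. The RSL3 group (3 libraries) then received 5 µM RSL3 for 24 h, and the DMSO group (3 libraries) the solvent alone. Whether libraries of a group stem from separate cultures is not stated in the labels, so the spread behind each p-value may be technical. RSL3 blocks GPX4, the enzyme that reduces lipid peroxides in membranes, and is used to set off ferroptosis, an iron-dependent form of cell death. N2a cells are a tumour line, so they stand in for neurons only in part. The comparison asks how each arm of the family differed after RSL3.

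A miRNA precursor is a hairpin from which Dicer, the cytoplasmic cutting enzyme, releases a duplex of a 5p and a 3p arm. Usually the guide arm is loaded into an Argonaute protein, and its bases 2 to 8, the seed, pair with target mRNAs, while the other arm is mostly degraded. In this family the 3p arms are the annotated guides and share a seed, so they can repress overlapping sets of mRNAs. Known targets include the gene of the fat-cell receptor PPARγ for miR-130 and, in human cells, NKRF, an inhibitor of NF-κB, for miR-301a.

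The mature sequences show what the members share and where they part. They come from RefSeq (GRCm38.p6), which held 7 of the 8 members, miR-301b-3p being the other, and the seed is in capitals.
miR-130a-3p: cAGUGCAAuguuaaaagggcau
miR-130b-3p: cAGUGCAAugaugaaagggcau
miR-301a-3p: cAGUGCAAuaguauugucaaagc
miR-130a-5p: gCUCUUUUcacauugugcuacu
miR-130b-5p: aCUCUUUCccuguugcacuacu
miR-301a-5p: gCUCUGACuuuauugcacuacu
miR-301b-5p: gCUCUGACuagguugcacuacu

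The 3 guide sequences had the seed AGUGCAA and were identical over their first 9 bases. Between miR-130a-3p and miR-130b-3p, 20 of 22 bases were the same, against 12 of 22 between miR-130a-3p and miR-301a-3p, so the miR-130 and miR-301 guides part in their 3′ portion. The 5p arms fell into different seeds: miR-301a-5p and miR-301b-5p both had CUCUGAC, whereas miR-130a-5p had CUCUUUU and miR-130b-5p had CUCUUUC. Outside the seed, the 5p arms of miR-130b, miR-301a and miR-301b ended in the same 10 bases, UUGCACUACU, a run found in 3 of the 1679 mature miRNAs of the reference (0.179%). The members were 22 bases long, apart from miR-301a-3p with 23, among the 7 with a sequence. How evenly different sequences were captured in the libraries was not tested, so levels of different arms are compared as reads only.

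The genes of miR-130b and miR-301b lie side by side, and their hairpins are shown to set the cluster partners against each other. Capitals mark the letters AGUGCAA, searched on the transcribed strand only.
Mir130b: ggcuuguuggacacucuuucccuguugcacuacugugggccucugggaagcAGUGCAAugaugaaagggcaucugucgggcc
Mir301b: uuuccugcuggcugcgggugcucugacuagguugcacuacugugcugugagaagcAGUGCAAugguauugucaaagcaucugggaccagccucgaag

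These letters occurred in the hairpins of all 4 precursors and in 12 of 1005 mouse hairpins in the reference (1.19%). From these letters on, the Mir301b hairpin reads nearly as miR-301a-3p does. Reads of miR-301a-3p and miR-301b-3p may therefore be hard to tell apart. On GRCm38, Mir130b (chr16:17124061-17124142) and Mir301b (chr16:17124400-17124496) lie on the minus strand of chromosome 16, with 257 bases between them, in an intron of the protein-coding gene 2610318N02Rik on the same strand. Mir301, the gene of miR-301a (chr11:87113004-87113089, plus strand), lies in an intron of Ska2, whose protein acts at the spindle and kinetochore in cell division. Mir130a (chr2:84741115-84741178, minus strand) overlaps no other annotated gene, and the nearest one on its strand, Gm19426, lies 991 bases away.

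Recovered miRNA reads ran from 3406276 to 4989380 in RSL3 libraries and from 4306460 to 6058006 in DMSO libraries. Members were counted with few of these, from 21 reads for miR-130a-5p in RSL3 library 2 to 1963 for miR-130b-5p in DMSO library 1. The 8 neuronal marker miRNAs were all present, with summed levels of 19700 to 25100 CPM in RSL3 and 21500 to 25600 CPM in DMSO libraries, led by miR-218-5p. The list for endothelium, fibroblasts and smooth muscle summed to 36800 to 37900 CPM in RSL3 and 35900 to 39100 CPM in DMSO libraries, nearly all of it miR-143-3p. Within that list limma called 0 of 6 miRNAs, but in 3 the groups did not overlap. Of these, 1 was higher and 2 were lower, and they are named after their values were seen. Over all 666 miRNAs tested, 80 were lower without overlap (12.0%), while those higher without overlap were not counted. miR-145a-5p averaged 666 ± 78.4 CPM in RSL3 and 952 ± 93 CPM in DMSO libraries (SD, n = 3 each; limma adjusted p = 0.063). miR-126a-3p averaged 802 ± 72.5 CPM in RSL3 and 614 ± 29.8 CPM in DMSO libraries (limma adjusted p = 0.095), and miR-126a-5p 42.5 ± 9.29 CPM in RSL3 and 58.5 ± 4.95 CPM in DMSO libraries (limma adjusted p = 0.17). Of the 8 neuronal markers, 1 was lower without overlap, miR-137-3p (limma adjusted p = 0.40), and 0 were higher without overlap. It averaged 64.4 ± 0.422 CPM in RSL3 and 75.8 ± 6.54 CPM in DMSO libraries. The other neuronal markers overlapped and differed in both directions. Among them were miR-9-5p (log2 difference 0.39, limma adjusted p = 0.27) and miR-218-5p (-0.28, limma adjusted p = 0.30). Of the 4 listed muscle markers, 1 was lower without overlap, miR-133a-3p (limma adjusted p = 0.11), and 0 were higher without overlap. It was at 1.85 ± 1.13 CPM in RSL3 and 4.33 ± 1.24 CPM in DMSO libraries. The part of these marker miRNAs in the differences of the family was not tested. Summed glial, blood, muscle, epithelial, liver and pluripotency markers overlapped between the groups too, and their highest sum was 462 CPM, in epithelial markers.

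The family was a small part of the miRNA pool. Its 8 arms together held 538, 453 and 474 CPM in RSL3 libraries 1 to 3, against 585, 647 and 682 CPM in DMSO libraries 1 to 3. Every RSL3 library was below every DMSO library. As a share of the deposited signal this was 0.0479% ± 0.00582 in RSL3 and 0.0651% ± 0.00317 in DMSO libraries (SD, n = 3 each). RNA from a whole culture cannot tell fewer cells that carry a miRNA apart from less of it per cell.

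All 8 arms had a lower mean after RSL3, and the ratio to DMSO was lower for the sum of the 5p arms than for that of the 3p arms. The summed 5p arms were at 313 ± 41.7 CPM in RSL3 and 438 ± 46.8 CPM in DMSO libraries (SD, n = 3 each), a ratio of 0.714. The summed 3p arms were at 175 ± 4.87 CPM in RSL3 and 199 ± 2.89 CPM in DMSO libraries (SD, n = 3 each), a ratio of 0.879. The groups did not overlap in either sum. They did overlap in the share of the 5p arms in the sum of all 8. That share was 64% ± 2.75 in RSL3 and 68.6% ± 2.09 in DMSO libraries (SD, n = 3 each). These sums carry no test.

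**Figure D1:**
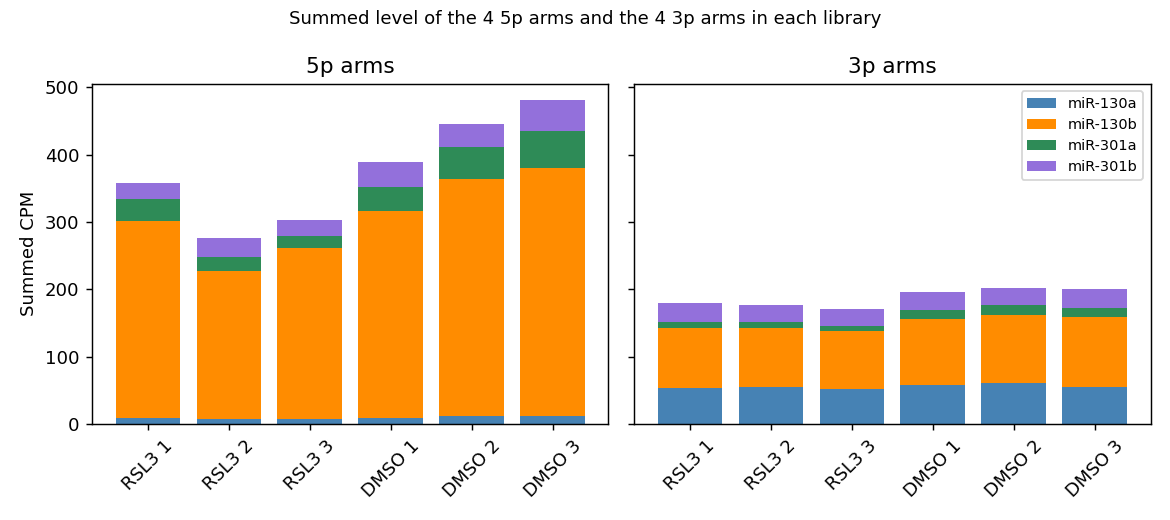
Summed CPM (vertical axis) of the 5p arms (left panel) and the 3p arms (right panel) in each library, with a colour for each precursor. The RSL3 bars on the left of each panel are lower than the DMSO bars, and miR-130b makes up most of the 5p sum.

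Over all 666 miRNAs tested with limma (log2 of CPM + 1, Benjamini-Hochberg adjustment at 0.05), 0 of the 8 members were called. The same test called 4 miRNAs higher (0.601%) and 1 lower (0.150%). At an unadjusted p under 0.05, 4 of the 8 members were lower and 0 higher, where 56 of all 666 miRNAs were lower (8.41%). In 5 of the 8, every RSL3 library was below every DMSO library, a pattern found in 80 of the 666 (12.0%). Negative log2 differences were found in 8 of 8 members, against 332 of all 666 miRNAs (49.8%). The median log2 difference was -0.39 over the members, -0.50 over the 5p arms and -0.16 over the 3p arms, against 0.001 over all miRNAs tested.

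Tests on the recovered reads gave different calls. In edgeR 0 of the 8 members were called, with 4 miRNAs higher and 2 lower among all 666 (0.300% lower). In DESeq2, miR-301a-5p and miR-301b-5p were called lower, where 21 of the 382 miRNAs with an adjusted p were lower (5.50%) and 19 higher. DESeq2 gave no adjusted p to miR-301a-3p or miR-130a-5p, the least abundant members.

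**Figure D2:**
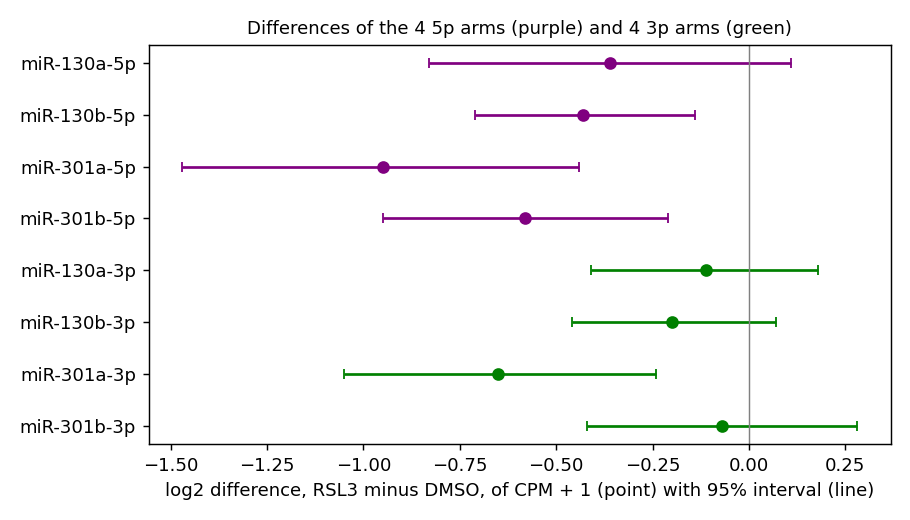
Difference of log2(CPM + 1) between RSL3 and DMSO libraries (horizontal axis, negative where RSL3 was lower) for the 5p arms (purple, upper rows) and the 3p arms (green, lower rows), with 95% limma intervals. All points lie below 0, and the intervals of miR-130b-5p, miR-301a-5p, miR-301b-5p and miR-301a-3p do not reach 0.

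Both arms of miR-301a were at lower levels in all 3 RSL3 than in all 3 DMSO libraries, without passing the limma test. The guide arm miR-301a-3p was at 8.64, 9.10 and 8.22 CPM in RSL3 libraries 1 to 3, against 13.5, 15.1 and 13.8 CPM in DMSO libraries 1 to 3. The groups did not overlap. The log2 difference was -0.65 ± 0.19 (SE), 0.639 of the DMSO level, with a limma adjusted p of 0.095. Here and below, ratios and intervals given with a log2 difference are those of CPM + 1. Its 95% interval ran from 0.482 to 0.847 of the DMSO level. These values rest on 29 to 41 reads in RSL3 and 68 to 86 reads in DMSO libraries. Such counts are too low for the small spread inside each group to be read as precision.

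The partner arm miR-301a-5p was at 33.0, 21.0 and 17.2 CPM in RSL3 libraries 1 to 3, against 34.6, 47.9 and 55.9 CPM in DMSO libraries 1 to 3. The groups did not overlap, but RSL3 library 1 was close to DMSO library 1. The log2 difference was -0.95 ± 0.24 (SE), 0.517 of the DMSO level (95% interval 0.362 to 0.737), with a limma adjusted p of 0.072. In DESeq2 the adjusted p was 0.0057, and in edgeR it was 0.075. The limma call changed with the libraries: without RSL3 library 1 the log2 difference was -1.21 (adjusted p = 0.015), and without RSL3 library 2 it was -0.89 (adjusted p = 0.025). The other 4 omissions did not pass. The log2 difference was -0.76 without RSL3 library 3 (adjusted p = 0.285), and -1.14, -0.91 and -0.80 without DMSO libraries 1, 2 and 3 (adjusted p = 0.056, 0.19 and 0.22). Rescaling to the sum without the 5 most abundant miRNAs gave -1.0 (adjusted p = 0.046). That setting shifted the log2 differences by a median of -0.049 and called 12 miRNAs lower, against 1 without it.

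**Figure D3:**
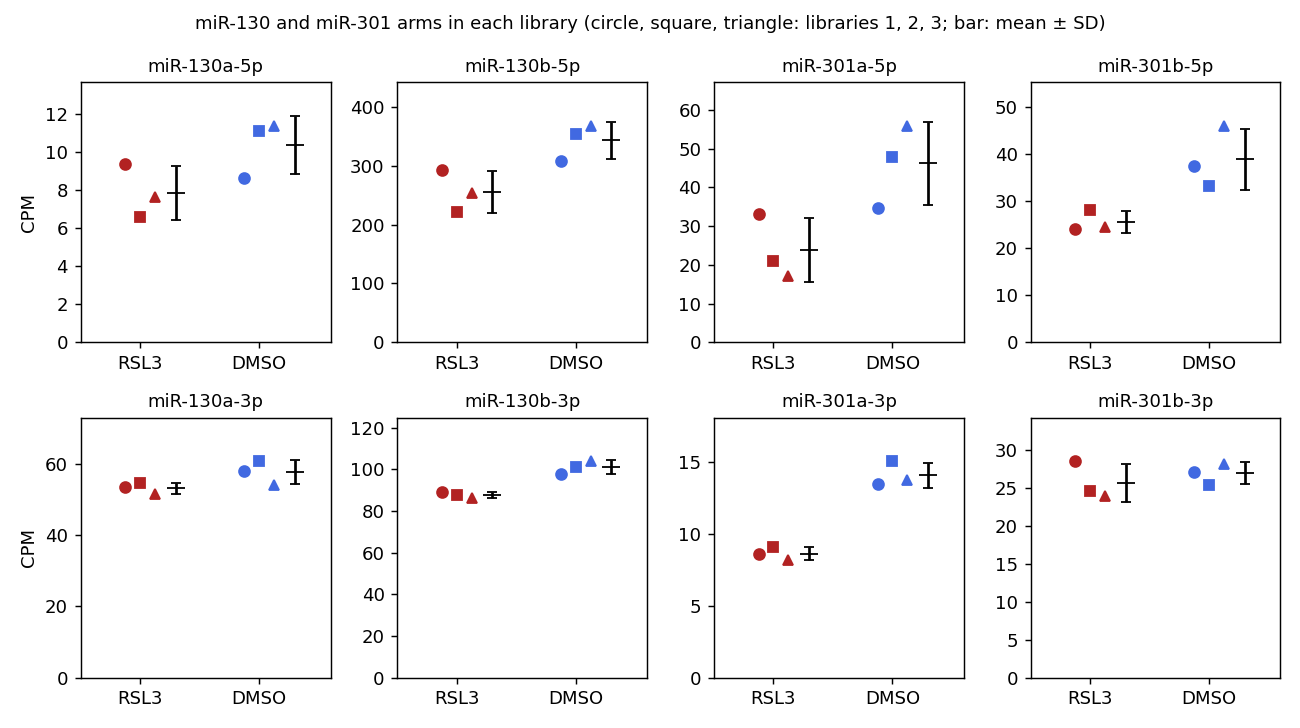
CPM (vertical axis, from 0, with its own scale in each panel) of each arm in RSL3 (left, red) and DMSO (right, blue) libraries, with the mean and SD as a black bar. In miR-301a-3p the RSL3 libraries sit between 8.22 and 9.10 CPM and the DMSO libraries between 13.5 and 15.1 CPM, whereas in miR-301b-3p the groups overlap. Both guides are nearly alike in sequence, and how reads were split between them is not stated.

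The cluster partners miR-130b and miR-301b come from neighbouring hairpins, and in both the 5p arm had the larger log2 difference. The 5p arm miR-130b-5p, the most abundant member, was at 292, 221 and 254 CPM in RSL3 libraries 1 to 3, against 308, 353 and 368 CPM in DMSO libraries 1 to 3. The groups did not overlap, with RSL3 library 1 and DMSO library 1 nearest to each other. The log2 difference was -0.43 ± 0.13 (SE), 0.744 of the DMSO level (95% interval 0.610 to 0.907), and the limma adjusted p was 0.10.

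For miR-301b-5p the levels were 24.1, 28.2 and 24.5 CPM in RSL3 libraries 1 to 3, against 37.6, 33.3 and 46.1 CPM in DMSO libraries 1 to 3. Again every RSL3 library was lower than every DMSO library. The log2 difference was -0.58 ± 0.17 (SE), 0.670 of the DMSO level (95% interval 0.518 to 0.867), with an adjusted p of 0.095 in limma, 0.090 in edgeR and 0.037 in DESeq2.

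The guide miR-130b-3p was at 89.2, 87.9 and 86.4 CPM in RSL3 libraries 1 to 3, against 97.6, 101 and 104 CPM in DMSO libraries 1 to 3. The groups did not overlap, yet the log2 difference was small, at -0.20 ± 0.12 (SE, limma adjusted p = 0.43). The guide miR-301b-3p was at 28.5, 24.5 and 23.9 CPM in RSL3 libraries 1 to 3, against 27.1, 25.3 and 28.1 CPM in DMSO libraries 1 to 3. Here the groups overlapped, and RSL3 library 1 held the highest value of all 6 libraries. Its log2 difference of -0.07 ± 0.16 (SE, limma adjusted p = 0.85) had a 95% interval from 0.746 to 1.22 of the DMSO level, which holds values on both sides of no difference.

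The ratio of miR-130b-3p to miR-301b-3p was 3.45 ± 0.273 in RSL3 and 3.76 ± 0.192 in DMSO libraries (SD, n = 3 each), with overlapping groups. For the 5p arms, the ratio of miR-130b-5p to miR-301b-5p was 10.1 ± 2.15 in RSL3 and 8.93 ± 1.46 in DMSO libraries (SD, n = 3 each), which overlapped as well.

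In miR-130a, which lies alone on chromosome 2, the groups overlapped in both arms. The guide miR-130a-3p was at 53.4, 54.6 and 51.5 CPM in RSL3 libraries 1 to 3, against 58.0, 60.8 and 54.1 CPM in DMSO libraries 1 to 3. The groups overlapped, since RSL3 library 2 was above DMSO library 3. The log2 difference was -0.11 ± 0.14 (SE, limma adjusted p = 0.70), with a 95% interval from 0.752 to 1.14 of the DMSO level. The 5p arm miR-130a-5p, the least abundant member, was at 9.40, 6.59 and 7.62 CPM in RSL3 libraries 1 to 3, against 8.62, 11.1 and 11.4 CPM in DMSO libraries 1 to 3. Its log2 difference was -0.36 ± 0.22 (SE, limma adjusted p = 0.40) on 21 to 38 reads in RSL3 and 50 to 58 reads in DMSO libraries.

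The share of the summed 3p arms held by miR-301a-3p was 4.94% ± 0.201 in RSL3 and 7.08% ± 0.351 in DMSO libraries (SD, n = 3 each), with no overlap. The largest share was that of miR-130b-3p, at 50.1% ± 0.619 in RSL3 and 50.6% ± 1.31 in DMSO libraries. Next came miR-130a-3p, at 30.3% ± 0.657 in RSL3 and 28.9% ± 1.66 in DMSO libraries, and miR-301b-3p, at 14.6% ± 1.08 in RSL3 and 13.5% ± 0.811 in DMSO libraries. In these 3 guides the groups overlapped. Of the summed 5p arms, miR-130b-5p held 81.7% ± 1.98 in RSL3 and 78.3% ± 1.61 in DMSO libraries, higher in RSL3 with no overlap. The share of miR-301a-5p was 7.50% ± 1.77 in RSL3 and 10.4% ± 1.38 in DMSO libraries, and here the groups overlapped. They overlapped too for miR-301b-5p, at 8.33% ± 1.75 in RSL3 and 8.91% ± 1.25 in DMSO libraries, and for miR-130a-5p, at 2.5% ± 0.121 in RSL3 and 2.36% ± 0.136 in DMSO libraries. The shares are given without a test, and that of miR-301a-3p rests on the few reads of this arm. It also depends on how reads were split between miR-301a-3p and the nearly alike miR-301b-3p.

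The order of the 8 levels over all 6 libraries began with miR-130b-5p, at rank 137 of the 685 entries by mean CPM, followed by miR-130b-3p at rank 233 and miR-130a-3p at rank 274. These first 3 did not overlap in range, which was 221 to 368 CPM, 86.4 to 104 CPM and 51.5 to 60.8 CPM. The next neighbours, miR-301a-5p (mean 35.0 CPM), miR-301b-5p (32.3 CPM) and miR-301b-3p (26.2 CPM), overlapped, and miR-301a-5p was above miR-301b-5p in 3 of 6 libraries. At the low end, miR-301a-3p (11.4 CPM) was above miR-130a-5p (9.12 CPM) in 5 of 6 libraries, with overlapping ranges.

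The 5p share of a precursor ran from 10.8% in miR-130a to 80.2% in miR-301a over all libraries. In miR-130b and miR-301a, the 5p arm, which is not the annotated guide, gave most of the reads: 74.3% ± 2.55 in RSL3 and 77.2% ± 1.14 in DMSO libraries for miR-130b, and 72.3% ± 6.16 in RSL3 and 76.1% ± 4.12 in DMSO libraries for miR-301a (SD, n = 3 each). In miR-130a, the 5p arm gave 12.9% ± 2.11 in RSL3 and 15.3% ± 2.24 in DMSO libraries. The arms of miR-301b were nearly even in RSL3 libraries, with a 5p share of 50.0% ± 3.87, whereas in DMSO libraries the 5p share was 59.0% ± 2.74. A higher 5p than 3p arm in all 6 libraries was found in 85 of the 181 precursors with both arms tested (47.0%), so it is common in these libraries.

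**Figure D4:**
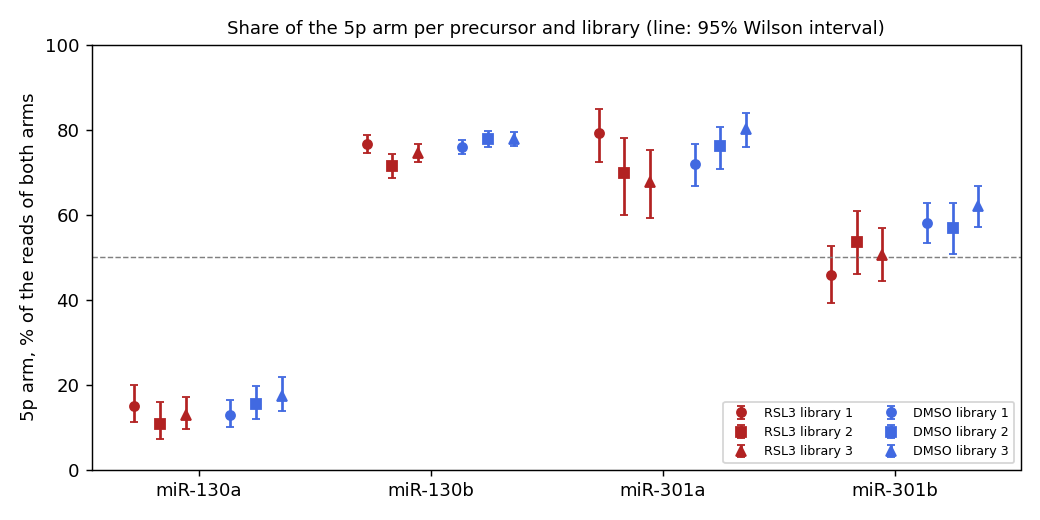
Share of the 5p arm in the reads of both arms (vertical axis, %) for each precursor and library, RSL3 in red on the left and DMSO in blue, with 95% Wilson intervals that cover counting error only. The share is far below 50% in miR-130a, far above it in miR-130b and miR-301a, and nearest to it in miR-301b. There the RSL3 libraries lie at 45.9% to 53.6% and the DMSO libraries, all above 50%, at 56.8% to 62.1%.

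The arm ratio, log2 of the 5p over the 3p level, was tested with limma over the 181 precursors, of which 3 were called (1.66%) and 0 belonged to the family. In miR-301b the ratio was -0.23, 0.20 and 0.03 in RSL3 libraries 1 to 3, against 0.46, 0.38 and 0.69 in DMSO libraries 1 to 3. The groups did not overlap, as in 27 of the 181 precursors with a lower ratio after RSL3 (14.9%). The change was -0.51 ± 0.21 (SE, limma adjusted p = 0.17). The changes were -0.31 ± 0.28 for miR-301a (adjusted p = 0.59), -0.23 ± 0.17 for miR-130b (adjusted p = 0.49) and -0.25 ± 0.23 for miR-130a (adjusted p = 0.60), each with overlapping groups. All 4 changes were negative, towards the 3p arm, as were those of 105 of the 181 precursors (58.0%). None of the 4 passed the test, so a stronger difference of the 5p arms than of the 3p arms was not established.

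Across the 6 libraries the correlation between members differed from pair to pair. Pearson's r of log2 levels was 0.98 between miR-130a-5p and miR-130b-5p, 0.93 between miR-130b-5p and miR-301a-5p, and 0.95 between miR-130b-3p and miR-301a-3p. By contrast, r was 0.06 between miR-130a-3p and miR-301b-3p and 0.31 between miR-301a-3p and miR-301b-3p. Between the arms of a precursor it was 0.90 for miR-130b, 0.84 for miR-301a, 0.43 for miR-301b and 0.42 for miR-130a. All of these share the same libraries and the same difference between groups, and they are given without p-values. How far counting error lowered r for the arms with few reads was not tested.

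Outside the family, the most similar pattern over the 6 libraries was sought among 410 miRNAs with a mean of at least 10 CPM. The highest r of so many over 6 libraries is high by selection. It describes likeness only and does not show joint regulation. For miR-301a-3p the closest were miR-615-3p (r = 0.973), miR-344-3p (0.962) and miR-466n-3p (0.945). Of these, miR-615-3p, from an intron of a Hox gene, was the miRNA called lower in limma (log2 difference -0.56, adjusted p = 0.034). For miR-301a-5p they were miR-598-3p (r = 0.994), miR-98-5p of the let-7 family (0.972) and miR-669o-5p (0.962). For miR-130b-5p they were miR-669o-5p (r = 0.994), miR-669l-5p (0.986) and miR-669d-5p (0.972).

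For miR-130b-3p the closest were miR-669c-5p (r = 0.982), miR-669f-5p (0.974) and miR-98-5p (0.971). For miR-301b-5p they were miR-1947-5p (r = 0.985), miR-465b-5p (0.971) and miR-466h-5p (0.970). The guide miR-130a-3p was most like miR-16-1-3p (r = 0.969), miR-700-3p (0.957) and miR-466n-3p (0.884). The guide miR-301b-3p was most like miR-671-3p (r = 0.924), miR-466i-3p (0.870) and miR-30b-3p (0.790), whose own log2 differences of -0.05, -0.01 and -0.01 were as near to 0.

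The seed AGUGCAA stands at bases 2 to 8 of 7 of the 1679 mature miRNAs in the reference (0.417%). Of these, 3 are the family guides above. The other 4, miR-721, miR-6341, miR-6389 and miR-130c, are not among the 685 listed entries. The guides miR-148a-3p, miR-148b-3p and miR-152-3p have the seed CAGUGCA, which is the family seed shifted by 1 base. They were far more abundant, and 0 of the 3 were called. The level of miR-148b-3p was 6170 ± 1950 CPM in RSL3 and 9660 ± 2800 CPM in DMSO libraries (SD, n = 3 each), with a log2 difference of -0.65 ± 0.23 (SE, limma adjusted p = 0.16) and overlapping groups. The log2 differences of miR-148a-3p and miR-152-3p were 0.06 ± 0.19 and 0.17 ± 0.12 (SE, limma adjusted p = 0.90 and 0.51).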

How the data were processed

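The authors deposited a normalised signal per mature miRNA, labelled CPM. Per the submitters' processing notes, cutadapt, Bowtie and edgeR and the build GRCm38 were used. Versions, settings and the handling of reads that fit more than 1 miRNA are not stated in these notes, so the split of reads between near-identical arms is uncertain. Within the family this holds above all for miR-301a-3p and miR-301b-3p. Dividing each library by the CPM of 1 read (0.157 to 0.314) gave whole reads for 100% of values within 0.01, and a TMM factor (edgeR's scaling between libraries) of 0.936 to 1.05 accounted for CPM sums of 949375 to 1068892. A count of 0 allows up to 3 reads, 0.470 to 0.941 CPM, for counting error only. Replicates differed beyond counting noise, with a chi-square of 73 to 257 per degree of freedom.

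With R 4.3.3, limma 3.58.1 was fitted to log2(CPM + 1), which understates differences of low miRNAs, with a variance trend, two-sided, over 666 miRNAs at 1 CPM or more in at least 3 libraries. Arm ratios were fitted likewise over 181 precursors, with the trend on the mean level of the arms. The plan named miR-301a alone for this, and the other 3 precursors were read from the same fit. Alternatives were pseudocounts, filters, scalings, variance models, the replicate block, edgeR 4.0.16, DESeq2 1.42.0, entries that share reads counted once, and leaving out each library. Scripts were tested on simulated data. Members and lists were chosen with earlier results of these data known. Named are the 8 members, same-seed and shifted-seed miRNAs, and for each member with a mean of at least 10 CPM the 3 miRNAs of highest Pearson's r. Positions are those of GENCODE M21 on GRCm38.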

Additional observations from a re-analysis of the deposited data

How the results depend on the processing

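All 8 log2 differences stayed negative under every alternative in which the arm had a test (miR-130a-5p was not tested with a 10 CPM filter, and DESeq2 gave it and miR-301a-3p no adjusted p). The log2 difference of miR-301a-5p passed the threshold after rescaling without the 5 most abundant miRNAs (-1.0) and in DESeq2 (-0.95), and ran from -1.21 to -0.76 when a library was left out. That of miR-301b-5p passed in DESeq2 (-0.61). Called members, 0 as reported, were 1 after that rescaling, 2 in DESeq2, and between 0 and 1 on leaving out a library. For miR-301a-3p the difference ran from -0.71 to -0.49 (adjusted p = 0.065 to 0.38), and for miR-130b-5p from -0.53 to -0.33 (adjusted p = 0.063 to 0.41).

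All miRNAs called higher, 4 as reported, were 1 without a variance trend, 1 with the replicate block, 19 in DESeq2, and between 1 and 14 on leaving out a library. Those called lower, 1 as reported, were 3 with a 10 CPM filter, 0 after median centring, 12 after the rescaling, 0 without a trend, 0 with the replicate block, 2 in edgeR, 21 in DESeq2 (284 miRNAs had no adjusted p), and between 0 and 12 on leaving out a library. Calls of the arm ratio, 3 as reported, were 12 with a pseudocount of 5, 8 with the 10 CPM filter, 5 without a trend, 1 with the replicate block, and between 1 and 3 on leaving out a library, and 0 of them were in the family under any of these settings. What caused these changes was not tested. With the replicate block, miR-301a-5p had a log2 difference of -0.95 (adjusted p = 0.35). Deviations of same-numbered libraries correlated at -0.35 to -0.19, and 0 of 6 libraries correlated best with its own number. With 3 libraries per group, these values cannot decide whether a replicate number marks a shared culture. The members with the fewest reads, miR-130a-5p and miR-301a-3p, had 21 to 86 per library, and how far depth sets their error was not tested.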
